A study of Mus musculus with 3 samples.

Results

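The genes described here carry out or steer the removal of maternal mRNA in the egg. They were chosen by name, as the rows of a deposited expression table with the symbols Btg4, Cnot7, Cnot6l, Pabpn1l, Zc3h14, Edc4 and Ythdf3. All 7 genes were found, with 17 transcripts among the 9126 transcripts of 6104 gene symbols in the table. The study compared mouse oocytes of the ICR strain that were matured in M16 medium to metaphase II, where the egg pauses until it is fertilized. There were 3 libraries, called young, aged, and aged-sec. The aged-sec oocytes were aged oocytes matured with the secretome (conditioned medium) of human umbilical cord mesenchymal stem cells. Each library pooled 20 oocytes from 4 mice, the ages of the mice are not given in the labels, and the labels give secretome as the treatment of every library, so the groups rest on the sample titles. Each group had 1 library, so no value below has a replicate error, no test was possible, and every difference is one between libraries.

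Values are TPM, an abundance corrected for transcript length and scaled to the same total in each library. The table holds only transcripts whose aged over young ratio was at least 1.2. A higher value in aged than in young oocytes was therefore a condition for being listed and is not a result. Selection through the aged library also draws aged-sec over aged ratios below 1. Over all 9126 listed transcripts the median ratio was 1.71 for aged over young and 0.818 for aged-sec over aged. Among those with at least 10 TPM in either library of the pair the medians were 1.48 and 0.884. The genes below are read against these medians. Read depth cannot be recovered from TPM, so no counting interval is given. In pooled cells, fewer cells of a type and less RNA per cell cannot be told apart. Of 12 oocyte markers 3 were listed, led by Bmp15 at 585 (young), 817 (aged) and 799 TPM (aged-sec); later triplets keep this order. Of 10 granulosa or cumulus markers only Fshr was listed, at 0.03, 0.55 and 0.22 TPM. The 2 listed of 6 stroma markers summed to 2.23, 4.07 and 3.09 TPM, and none of 5 blood markers was listed. The part of other cells in the results below was not tested.

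A growing oocyte stores mRNA and then stops transcription, so the later loss of these messages depends on enzymes that shorten poly(A) tails. The CCR4-NOT complex holds a pair of deadenylases, one of the CAF1 type (Cnot7 or Cnot8) and one of the CCR4 type (Cnot6 or Cnot6l). In the egg the adaptor Btg4 brings the complex to mRNA, helped by the poly(A)-binding protein Pabpn1l. Tail loss is followed by removal of the cap, for which Edc4 is a scaffold, and Ythdf3 reads the m6A mark, which many short-lived messages carry. Zc3h14 is a zinc finger protein that binds poly(A) RNA and limits tail length.

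The variants of Zc3h14, Edc4 and Ythdf3 differ by short coding stretches. Those of Zc3h14 and Edc4 are shown because the values of their listed variants moved apart between libraries, and that of Ythdf3 to identify its only listed variant. Sequences are from GENCODE M21 transcripts (build GRCm38, + strand), paired with the RefSeq accessions by its own table. The build behind the deposited values is not given in the sources used here. Zc3h14 has 3 variable exons of 75, 160 and 233 bases. NM_029334 holds all of them, NM_001008506 holds only the first, and NM_001160107 holds none. Their coding lengths are 2205, 1812 and 1737 bases. The 75-base exon lies at chr12:98774245-98774319, the exons of 160 and 233 bases at chr12:98779108-98779267 and chr12:98780048-98780280. The 75-base exon and the junctions of each variant into the next shared exon, whose first 15 bases are in capitals, are these.
Zc3h14 75-base exon: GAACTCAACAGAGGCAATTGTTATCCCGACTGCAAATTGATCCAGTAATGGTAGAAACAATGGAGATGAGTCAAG
Zc3h14 NM_029334, joining chr12:98780280 to chr12:98783582: gtagcttttccaacgCCGAGATGACTGACC
Zc3h14 NM_001008506, joining chr12:98774319 to chr12:98783582: tggagatgagtcaagCCGAGATGACTGACC
Zc3h14 NM_001160107, joining chr12:98763978 to chr12:98783582: caggaaaaagtcaagCCGAGATGACTGACC

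Edc4 NM_001301100 holds 48 coding bases at chr8:105889625-105889672 that NM_181594 skips, so that their coding lengths are 4218 and 4170 bases. The junctions are shown with the downstream bases in capitals.
Edc4 NM_001301100, the 48 bases: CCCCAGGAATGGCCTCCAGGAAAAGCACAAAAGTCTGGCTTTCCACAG
Edc4 NM_001301100, joining chr8:105889540 to chr8:105889625: cacactgacagaaagCCCCAGGAATGGCCT
Edc4 NM_181594, joining chr8:105889540 to chr8:105889673: cacactgacagaaagGCCACCTTATCACTT

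The listed Ythdf3 variant, NM_001145919, lacks a 33-base coding exon of NM_172677 at chr3:16203187-16203219. NM_172677 is not among the listed variants, so it has no value here.
Ythdf3 exon absent from NM_001145919: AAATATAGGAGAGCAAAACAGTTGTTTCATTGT
Ythdf3 NM_001145919, joining chr3:16189563 to chr3:16203826: agccagacaaatcagAATAACAGCTATCCA

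The 2 curated Cnot7 variants hold the same coding bases (855 bases on chromosome 8, - strand) and differ in their untranslated first exon. Their 3′ untranslated regions also differ slightly, with 1445 bases in NM_001271542 and 1447 in NM_011135. NM_001271542 starts at base 40515847 and NM_011135 at base 40511754, 4093 bases downstream. The curated Cnot6l variants NM_144910 and NM_001285514 are paired with 1 and the same GENCODE transcript, so the difference between them cannot be shown. Pabpn1l has a single annotated mRNA of 819 coding bases on chromosome 8.

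In listed level the deadenylase genes Cnot7 and Cnot6l and the gene Pabpn1l stood far above the rest. Listed variants were summed per gene, which is less affected by how reads are divided among variants but leaves out those not listed. Cnot7 summed to 417.85, 616.1 and 560.61 TPM, over 3 of 7 annotated RefSeq mRNAs. Pabpn1l, the only gene whose annotated mRNA was wholly covered, stood at 226, 313 and 339 TPM. Cnot6l summed to 81.7, 124.93 and 144.98 TPM over 3 of 10 mRNAs. These genes took ranks 1, 2 and 3 in each of the 3 libraries. The sum of Edc4 was 22.2, 33.6 and 18.5 TPM (3 of 8 mRNAs), that of Ythdf3 14.8, 38.6 and 31.4 TPM (1 of 6) and that of Zc3h14 11.2, 37.1 and 26.4 TPM (4 of 16). The order of these genes differed between libraries. Edc4 ranked above both others in the young library, at rank 4, and below both in the aged and aged-sec libraries, at rank 6. Btg4 was represented by 2 predicted variants of 6 mRNAs and summed to 1.49, 2.21 and 0.91 TPM, the lowest of the genes in each library. Its curated mRNA, NM_019493, is not among the listed variants, so these values do not give the level of Btg4.

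**Figure D1:**
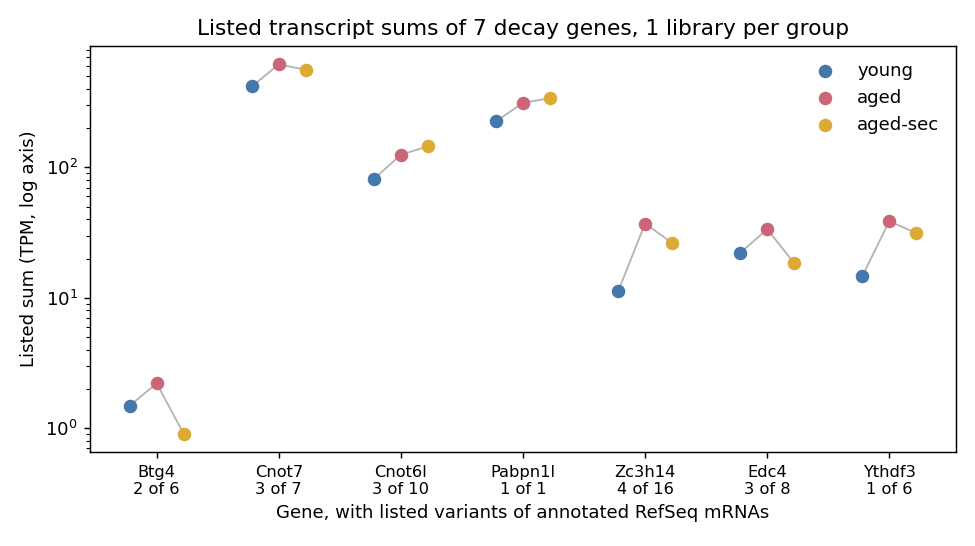
Listed TPM (log axis) summed per gene in the young, aged and aged-sec libraries, 1 point per library, with the number of listed variants of the annotated RefSeq mRNAs under each name. Cnot7 was highest in each library (417.85 to 616.1 TPM) and Btg4 lowest (0.91 to 2.21 TPM).

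Setting aged beside young oocytes asks how far the listed decay transcripts exceeded their level in young oocytes. Among the deadenylases and their partners the main listed variants differed little. Cnot7 NM_001271542 had 411 TPM in the young and 584 TPM in the aged library, a ratio of 1.42. Pabpn1l had a ratio of 1.39, and Cnot6l NM_144910, at 53.5 and 67.4 TPM, one of 1.26. All of these lay below the median of all listed transcripts, and less far below the median of 1.48 for those with at least 10 TPM. The larger ratios came from second variants of the same genes. Cnot7 NM_011135, the variant with the downstream first exon, had 6.56 TPM in the young and 31.1 TPM in the aged library, a ratio of 4.75 and rank 48 of the 2186 listed transcripts with at least 10 TPM in either library. Its share of the listed Cnot7 sum was 1.57% in young and 5.05% in aged oocytes. The predicted Cnot6l variant XM_006534872 stood at 25.9 and 50.9 TPM, a ratio of 1.96, and the low curated variant NM_001285514 at 2.25 and 6.6 TPM.

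For the reader protein gene Ythdf3 the only listed variant, NM_001145919, had 14.8 TPM in the young and 38.6 TPM in the aged library. That is a ratio of 2.62 and rank 145 of 2186. Edc4 lay at or below the median of all listed transcripts. NM_181594 stood at 9.6 and 16.3 TPM (ratio 1.70) and NM_001301100 at 7.02 and 8.89 TPM (ratio 1.27). The predicted XM_030243504 stood at 5.54 and 8.38 TPM (ratio 1.51). Only NM_181594 reached 10 TPM, and its ratio was above the median of 1.48 for such transcripts. The Btg4 variant XM_006510500 stood at 1.31 and 1.84 TPM and XM_006510502 at 0.18 and 0.37 TPM. Both are too low for a ratio to carry weight.

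A size rule was used in place of a test: at least a 2-fold ratio after 0.5 TPM was added to each value, and a higher value of 10 TPM or more. Of the 10 member transcripts that reached the minimum, 4 met it, where 18.2% of all listed transcripts that reached it were called higher. The 4 were Zc3h14 NM_001008506, Zc3h14 NM_001160107, Cnot7 NM_011135 and Ythdf3 NM_001145919. Of the 10 transcripts, 5 reached the minimum in the aged library only. Among these were Zc3h14 NM_001008506, Zc3h14 NM_001160107 and Cnot7 NM_011135, so their part of this count is set by the minimum. Of the 4, only Ythdf3 NM_001145919 reached it in both libraries. Of the listed sums per gene, those of Zc3h14 and Ythdf3 met the rule, 2 of 6 with enough TPM, where 16.7% of all gene sums did. The other members were below the rule. The direction was fixed by the table. The libraries were also scaled to equal medians or upper quartiles, taken over the listed transcripts. Those were selected for a higher aged value and held 22.9% (young), 32.5% (aged) and 32.1% (aged-sec) of the TPM. Such scaling therefore also takes out difference that the selection put in. With either scaling only Cnot7 NM_011135 met the rule, where 2.3% (equal medians) and 2.87% (equal upper quartiles) of all listed transcripts did. Zc3h14 NM_001008506 and NM_001160107 then fell under the 10 TPM minimum, while their log2 ratios, 3.98 and 2.61 as deposited, were 3.42 and 1.82 with equal medians. Ythdf3 fell below a 2-fold ratio, from a log2 ratio of 1.36 to one of 0.43, and so did the sums of both genes.

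**Figure D2:**
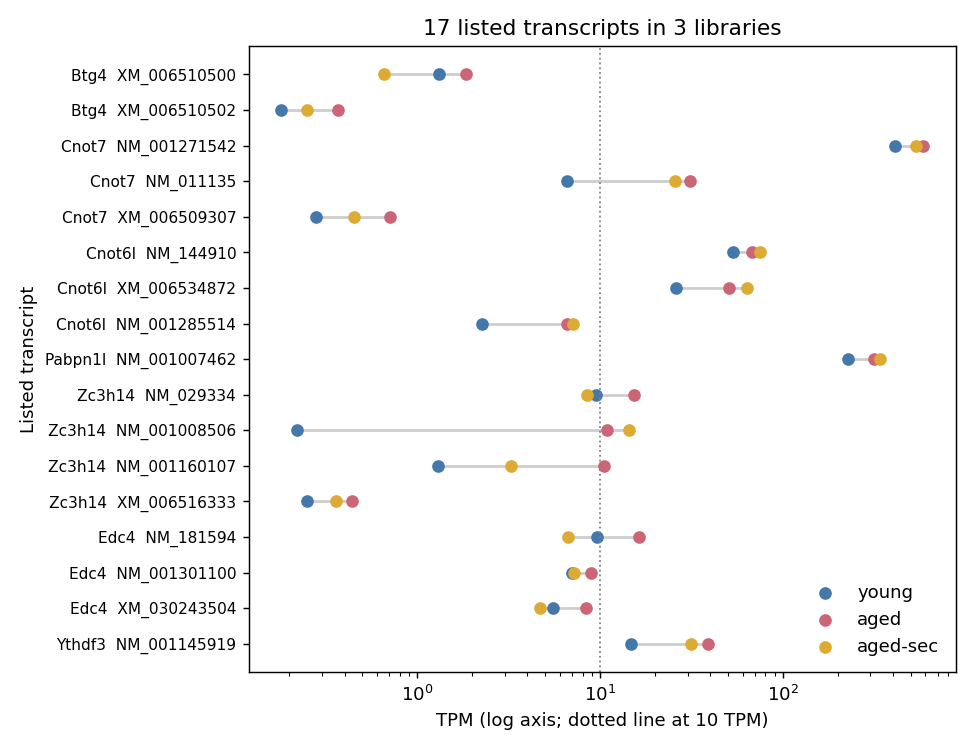
TPM (log axis) of each of the 17 listed transcripts, 1 point per library (blue young, red aged, yellow aged-sec), with a dotted line at 10 TPM. The widest spread is that of Zc3h14 NM_001008506, from 0.22 TPM in young to 14.3 TPM in aged-sec oocytes.

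Of the 7 genes, Zc3h14 had the largest aged over young ratio of its listed sum, 3.30, and the mix of its listed variants differed between the libraries. The full-length coding variant NM_029334 had 9.47, 15.3 and 8.49 TPM in the 3 libraries. NM_001008506, which keeps only the 75-base exon printed above, stood at 0.22, 10.9 and 14.3 TPM. NM_001160107, without any of the 3 exons, stood at 1.3, 10.5 and 3.26 TPM. Among these listed forms, the full-length one thus led by far in the young library, while in the aged library each shorter form stood somewhat below it. In the aged-sec library the form with the 75-base exon alone led among them. Variants that are not listed have no value here and could stand higher.

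Expressed as shares of the 3 curated variants, the full-length form made up 86.2% (young), 41.8% (aged) and 32.6% (aged-sec). The form with the 75-base exon alone made up 2.00%, 29.6% and 54.9%. The form with none of the exons made up 11.8%, 28.6% and 12.5%. The full-length form holds the 75-base exon too, and all forms with that exon together made up 88.2%, 71.4% and 87.5%. The 2 forms that lack the exons of 160 and 233 bases summed to 1.52, 21.3 and 17.6 TPM. Their sum was therefore 14.04 times as high in aged as in young oocytes, where the full-length form was 1.62 times as high. The young sum of 1.52 TPM is far under the 10 TPM minimum, so the size of the 14.04-fold ratio carries little weight.

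How unusual this was among genes was described by the share of the listed sum that moved between variants, the summed absolute differences in percentage points divided by 2. For Zc3h14 43.97 points moved between young and aged oocytes, rank 1 of 726 genes with at least 2 listed variants and a listed sum of at least 10 TPM in both libraries. The median gene moved 2.60 points. Between aged and aged-sec oocytes Zc3h14 moved 25.1 points, rank 12 of 872 genes (median 2.94). Between young and aged-sec oocytes it moved 52.97 points, again rank 1, of 722 genes. For the other members with several variants and enough TPM the mix moved less from young to aged: 11.5 points in Cnot6l (rank 69), 5.22 in Edc4 (rank 221) and 3.53 in Cnot7 (rank 295). Variants share most of their exons, and the program that divided the reads among them is not given in the sources used here. With 1 library each and levels around 10 TPM, the spread of such shares between repeat libraries is unknown. Of the 16 annotated Zc3h14 mRNAs 4 were listed, and the others could not enter the shares.

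**Figure D3:**
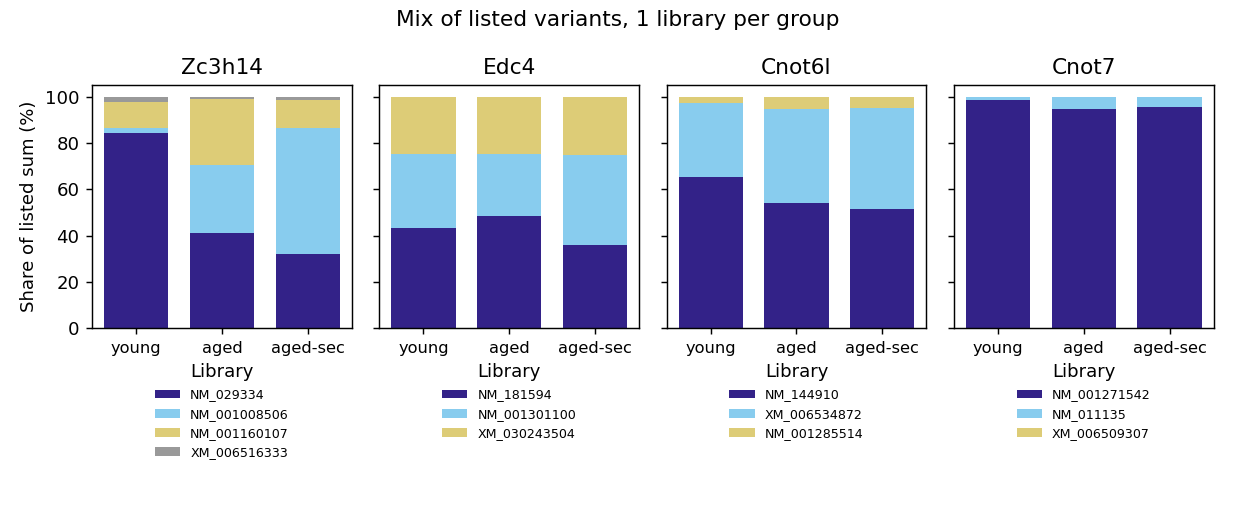
Share of the listed sum (%) held by each listed variant of Zc3h14, Edc4, Cnot6l and Cnot7 in each library, stacked to 100%. The dark part of the Zc3h14 bars, NM_029334, takes 84.3%, 41.3% and 32.1% from left to right, here with the predicted variant included, while NM_001271542 takes at least 94.8% of each Cnot7 bar.

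Setting aged-sec beside aged oocytes asks whether maturation with secretome went with another level of these transcripts. Cnot6l and Pabpn1l were above their aged level and Cnot7 was below it. Cnot6l stood at 67.4 and 74.5 TPM in NM_144910 and at 50.9 and 63.3 TPM in XM_006534872, ratios of 1.11 and 1.24. Pabpn1l stood at 313 and 339 TPM, a ratio of 1.08. Cnot7 NM_001271542 stood at 584 and 535 TPM, a ratio of 0.915, which is below 1 but above the median of all listed transcripts. NM_011135 was at 31.1 and 25.5 TPM, a ratio of 0.819. That is at the median of all listed transcripts and below the 0.884 of those with at least 10 TPM. With the libraries scaled to equal medians, which shifts this log2 ratio by 0.36, both Cnot7 ratios are above 1, as those of Cnot6l and Pabpn1l remain. With equal upper quartiles NM_001271542 is above 1 and NM_011135 stays below it, at a log2 ratio of -0.04.

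The decapping scaffold gene Edc4 was lower in the aged-sec library. Each of its 3 variants was below its aged value, of which NM_001301100 turns above it with scaling to equal medians but not with equal upper quartiles. NM_181594 stood at 16.3 and 6.67 TPM, a ratio of 0.409, against 8.89 and 7.16 TPM for NM_001301100, which holds the 48 additional bases, and 8.38 and 4.66 TPM for XM_030243504. Of the listed Edc4 variants, NM_181594 was the most abundant in young and aged oocytes. In aged-sec oocytes NM_001301100 was slightly above it, with both under the 10 TPM minimum. The Edc4 sum had a ratio of 0.551. Ythdf3 stood at 38.6 and 31.4 TPM, a ratio of 0.812, close to the median of all listed transcripts and below the 0.884 of those with at least 10 TPM. Its log2 ratio was 0.06 with equal medians and -0.05 with equal upper quartiles. The Btg4 variants stood at 1.84 and 0.66 TPM and at 0.37 and 0.25 TPM.

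The 3 curated Zc3h14 forms did not move together. The full-length form was lower in aged-sec oocytes, with a ratio of 0.553, and the form with none of the exons was lower still, with a ratio of 0.311. The form with the 75-base exon alone was higher, with a ratio of 1.32. The sum of Zc3h14 had a ratio of 0.711.

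By the size rule 2 of the 10 member transcripts with enough TPM were lower and 0 higher, where 2.95% of all listed transcripts were lower and 0.223% higher. They were Zc3h14 NM_001160107 (log2 ratio -1.55, rank 29 from the lowest of 2239) and Edc4 NM_181594 (log2 ratio -1.23, rank 44). Both reached 10 TPM in the aged library only, and both comparisons use that library, so a high aged value enters the age ratio and this ratio alike. No listed sum of a member met the rule, where 2.18% of all gene sums were lower and 0.156% higher. Neither of the 2 transcripts met the rule with scaling to equal medians or upper quartiles, which left log2 ratios of -1.20 and -1.30 for Zc3h14 and of -0.88 and -0.98 for Edc4. The former was then under the 10 TPM minimum, the latter under a 2-fold ratio.

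**Figure D4:**
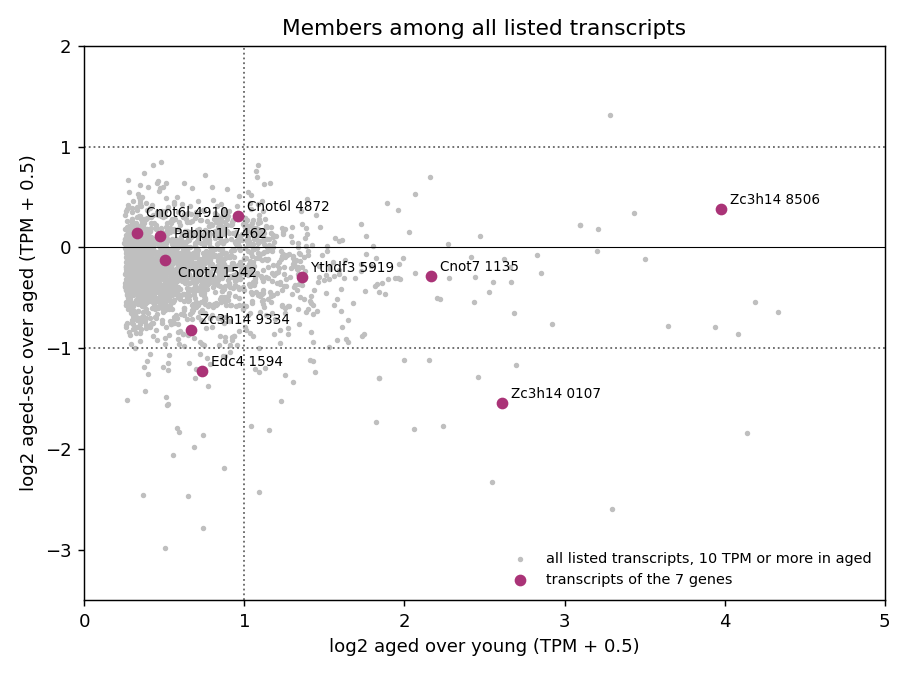
Log2 aged over young (x axis) against log2 aged-sec over aged (y axis), both with 0.5 TPM added, for the 2186 listed transcripts with at least 10 TPM in aged oocytes (grey) and the 10 member transcripts among them (purple, with the last 4 digits of the accession). Dotted lines mark a 2-fold ratio, 13 transcripts lie outside the axes, and both axes share the aged library. Zc3h14 NM_001160107 and Edc4 NM_181594 lie below the lower line.

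Set beside young oocytes, the aged-sec library showed which members stayed above the young level. Cnot7 NM_011135 stood at 25.5 TPM against 6.56 TPM in young oocytes, Cnot6l XM_006534872 at 63.3 against 25.9 TPM, Ythdf3 at 31.4 against 14.8 TPM and Zc3h14 NM_001008506 at 14.3 against 0.22 TPM. These 4 met the size rule, of 7 member transcripts with enough TPM, where 17.1% of all listed transcripts were called higher and 0.45% lower. Of the 4, Cnot7 NM_011135 and Zc3h14 NM_001008506 reached the minimum in the aged-sec library only, so their part of this count is set by the minimum. Scaling to equal medians gave 2 higher and 1 lower. With that scaling 6.26% of all listed transcripts that reached the minimum were called, 81 higher and 55 lower. The member called lower was Edc4 NM_181594, at 6.67 against 9.6 TPM as deposited. Of the listed sums 2 met the rule, those of Zc3h14 and Ythdf3, where 14.3% of all gene sums were called higher and 0.344% lower. Neither sum met it with scaling to equal medians or upper quartiles. Among members with a sum of at least 10 TPM, Edc4 alone was below its young level in TPM as deposited, with a ratio of 0.834. With equal medians or upper quartiles the Cnot7 sum was below it too, at log2 ratios of -0.16 and -0.11. The ratio of the Cnot7 sum was 1.34, close to the median of 1.37 over gene sums, and Pabpn1l was above this median, at 339 against 226 TPM.

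The wider decay machinery was followed through 11 lists with 137 genes, of which 76 had a listed transcript. Their listed sums were below the aged value in aged-sec oocytes for 62 genes and above it for 14, and with scaling to equal medians 37 were below and 39 above. Over all gene sums this ratio had a median of 0.818 and an upper quartile of 1.006, so most listed genes were below the aged value too. None of the list genes met the size rule in that comparison in either direction, of 41 with enough TPM. With scaling to equal medians 1 was called higher. The median log2 ratio over the 76 genes was -0.28, against -0.20 over all listed genes. In the age comparison 8 of the 41 met it, where 16.7% of all gene sums did, and none of 39 with scaling to equal medians or upper quartiles. Besides Zc3h14 and Ythdf3 these were Papolg, a nuclear poly(A) polymerase (13.2 and 29.4 TPM), Cpeb4, a cytoplasmic polyadenylation element-binding protein (4.52 and 10.2 TPM), Fip1l1, a subunit of the polyadenylation machinery (6.66 and 14.8 TPM), Igf2bp3, an m6A reader (1.51 and 12.1 TPM), Pum2, a repressor that binds 3′ ends of messages (11.3 and 23.5 TPM), and Exosc2, a subunit of the RNA exosome (72.5 and 167 TPM). Cpeb4, Fip1l1 and Igf2bp3 reached 10 TPM in the aged library only. Exosc2 was higher still in aged-sec oocytes, at 227 TPM. Between aged-sec and young oocytes 6 of 38 genes met the rule, where 14.3% of all gene sums were called higher, and with either scaling Exosc2 was the only one of them that did.

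By role, 8 of 11 CCR4-NOT subunits were listed. Their median log2 ratio was 0.58 for aged over young and -0.38 for aged-sec over aged, and none met the rule. In TPM as deposited, Cnot6l was the only one of the 8 above its aged level in aged-sec oocytes. Of 6 adaptors of the BTG and TOB family 2 were listed, Tob1 at 0.19, 0.77 and 0.42 TPM and the 2 predicted variants of Btg4, which do not give its level. Of 7 genes in a list of other deadenylases and related proteins 4 were listed, led by Angel2 at 181, 228 and 175 TPM. Pan3, which recruits the PAN2 deadenylase, stood at 52.6, 88.1 and 107 TPM and met the rule between aged-sec and young oocytes in TPM as deposited, with a log2 ratio of 1.01, but with neither scaling. Among 10 poly(A)-binding proteins and partners 5 were listed, with Pabpn1l the most abundant. The decapping and 5′ to 3′ decay list had 12 of 22 genes listed, led by the ring subunit Lsm3 at 91.2, 117 and 136 TPM, and had medians of 0.63 and -0.24. Edc4 had the lowest aged-sec over aged log2 ratio of these 12, -0.84.

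Among poly(A) polymerases and polyadenylation factors 8 of 14 genes were listed and 6 had enough TPM in the age comparison. The 3 named above met the rule there, where 16.7% of all gene sums did, and none of them with either scaling. Cpsf2 was the most abundant at 38.8, 50.6 and 37.4 TPM. Cpeb1, which binds the cytoplasmic polyadenylation element, stood at 8.6, 11.3 and 19.2 TPM and met the rule between aged-sec and young oocytes in TPM as deposited, but with neither scaling. Of 18 m6A genes 9 were listed and 4 had enough TPM in the age comparison. There Ythdf3 and Igf2bp3 met the rule, where 16.7% of all gene sums did, and neither met it with either scaling. Igf2bp2 led the list at 51.4, 62.3 and 53.6 TPM. Of 19 regulators that bind untranslated regions 8 were listed, with Ybx1 at 60.7, 72.95 and 63.7 TPM and Elavl2 at 43.2, 75.2 and 66.5 TPM the most abundant. The RNA exosome list had 12 of 17 genes listed, with Exosc7 the most abundant at 180, 291 and 231 TPM. Of 10 nonsense-mediated decay genes 7 were listed, led by Upf3b at 30.9, 49.2 and 42.8 TPM. Of 3 uridylation genes only Tut7 was, at 1.23, 3.01 and 2.21 TPM.

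**Figure D5:**
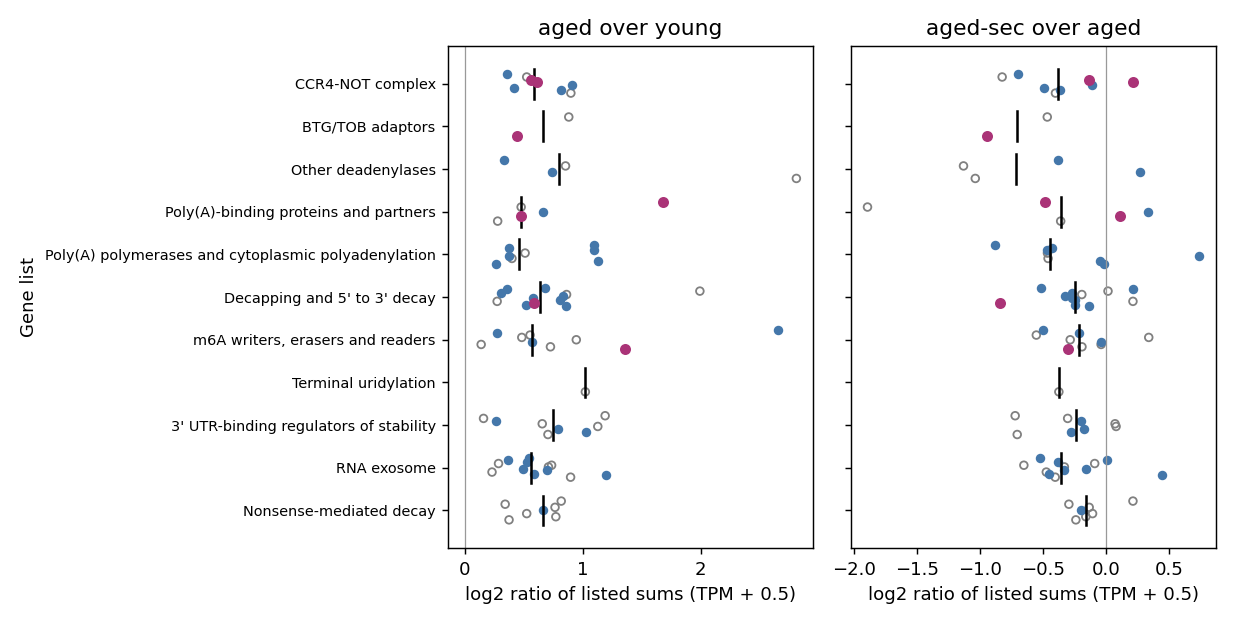
Log2 ratio of listed sums with 0.5 TPM added, for each listed gene of 11 decay lists, aged over young (left) and aged-sec over aged (right). Purple points are the 7 genes named at the start, blue points other genes with at least 10 TPM in some library, open circles genes below that, and black bars list medians. On the right the medians run from -0.71 to -0.16, where all listed genes have -0.20.

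The genes nearest to each member by both log2 ratios were found among 1831 named genes with a listed sum of at least 10 TPM in aged oocytes. Nearest to Cnot7 were Rfpl4 (distance 0.011 in log2 units) and Slc23a2 (0.015). Nearest to Pabpn1l were Zcchc10 (0.0029) and Smim26 (0.0070), and nearest to Cnot6l were Thoc7 (0.015) and Smim40 (0.033). Siah1b (0.0074) and Fam114a2 (0.014) lay closest to Edc4, Nlrp4g (0.024) and Ehbp1 (0.026) to Ythdf3. Zc3h14 had its nearest genes farther off, Nfu1 at 0.103 and St3gal5 at 0.112. A likeness over 3 libraries is a description only.

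The 3′ ends of the members were searched for elements that bear on tail length, in the last 150 bases of a GENCODE transcript. It was the one paired with the listed curated variant of highest mean TPM, or with NM_019493 for Btg4. The cytoplasmic polyadenylation element, TTTTAT or TTTTAAT on the transcript strand, was found in Btg4 alone, at 2 places, where 22.9% of 35318 protein-coding transcripts with a 3′ untranslated region of at least 150 bases held it. The place nearer the end is shown with the element in capitals, at chr9:51119797-51119826 on the + strand.
Btg4 NM_019493: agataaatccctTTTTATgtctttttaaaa
The poly(A) signal, AATAAA or ATTAAA, was found in the other 6 genes and not in this window of Btg4, and 74.3% of the transcripts held it. The Pumilio element TGTANATA was found in Cnot7 alone, where it overlaps the poly(A) signal, and 6.0% of the transcripts held it. A match describes the letters in the window only.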

How the data were processed

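The authors' deposited table gives TPM of RefSeq mRNAs for the 3 libraries, per the file headers, although its name reads raw counts. Its A/Y and AS/A ratio columns, also deposited by the authors, match the TPM to a relative 6.6e-07, and no row holds a 0. Libraries were SMART-Seq2 cDNA with transposon-based construction, per the labels' protocols. The build, the aligner and the program that assigned reads to variants are not named by the sources used here. TPM were used as deposited, and the planned design assumed TPM. Sums per gene took rows that repeat an accession and its values once. All 17 member accessions matched RefSeq of GRCm38.p6, used for the number of annotated mRNAs. Log2 ratios had 0.5 TPM added. The members, gene lists and marker lists were chosen with earlier results of these data known. Named genes were all members, the most abundant gene and each gene under the size rule of every list, and the 2 nearest genes per member. The calculation of the size rule was tested on simulated data. Python 3.11.15, pandas 2.3.3 and matplotlib 3.10.9 were used. Alternatives were other pseudocounts, minimums and scalings, curated transcripts alone, listed sums and the most abundant variant alone.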

Additional observations from a re-analysis of the deposited data

How the results depend on the processing

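No paired analysis was possible because each group had 1 library, which also leaves no library to leave out. The counts of member transcripts under the size rule kept within 1.5 times of 4, 2 and 4 (aged against young, aged-sec against aged, aged-sec against young) with a pseudocount of 0.1 or 1 TPM, a minimum of 1 TPM or none, and curated transcripts only. In the age comparison the count was 2 with a minimum of 20 TPM, 1 with scaling to equal medians, 1 with equal upper quartiles, and 2 for sums per gene. The shares called over all listed transcripts or gene sums were 16.1%, 2.3%, 2.87% and 16.7% in these settings, against 18.2% in the main one. Between aged-sec and aged oocytes the count was 0 in each of these 4 settings, where 1.92%, 2.26%, 2.07% and 2.33% of all were called. Between aged-sec and young oocytes the count was 2 for sums per gene, where 14.7% of all were called. Scaling to equal medians, taken over the listed and so selected transcripts, shifted the log2 ratios by -0.95, 0.36 and -0.58. It gave 8 of 17 member transcripts above 0 in the age comparison and 10 of 17 in that of aged-sec with aged. It also turned the split of all listed transcripts in the latter from 5 higher and 66 lower to 23 and 23. The Zc3h14 sum was above young in aged-sec oocytes (ratio 2.35), since the sum gathers the shorter forms. The most abundant variant alone was taken by its mean over the 3 libraries. For Zc3h14 that was NM_029334, with a log2 ratio of -0.15. NM_001008506, the highest in the aged-sec library, had 4.36. Precision is limited by 1 library per group and by unknown depth.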
